A study of Mus musculus with 20 samples.

Results

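Immediate early genes were examined in mouse pancreas around birth, in animals with and without inceptor. The members were the 10 named genes Fos, Fosb, Jun, Junb, Egr1, Atf3, Ier2, Zfp36, Btg2 and Dusp1, chosen by symbol, and each gene was read from its single-symbol probe set with the highest mean. This gave values for 9 of the 10 genes, among 30063 genes with such a probe set. The probe set of Junb was shared with another symbol, so Junb was not analysed here. All animals were C57BL/6J and their sex was not determined. The labels name the inceptor gene Iir, a former name of Elapor1. Its product, a membrane protein, restrains insulin receptor signalling, and the question behind the arrays is what its loss does to the perinatal pancreas. Knockouts were Iir -/- and wild types Iir +/+, and RNA came from the whole pancreas. The E18.5 groups held 5 knockout and 4 wild-type arrays, from embryos whose mothers had been starved for 2 h. The P0 groups held 6 knockout and 5 wild-type arrays, from pups starved for 5 h, so age, birth and fasting time cannot be told apart. Elapor1 itself was at 11.07 to 12.06 on the wild-type arrays and at 5.58 to 6.50 on the knockout arrays (log2 signal), and no array went against its genotype label. Array medians lay between 4.81 and 4.94. Acinar marker genes, those of the enzyme-producing cells that make up most of the pancreas, had mean signals of 16.22 to 17.05 over all groups. Whether arrays came from separate animals, and which animals were littermates, is not stated, and the p-values then cover only the variation among these arrays, which may be technical.

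Immediate early genes are transcribed within minutes of a stimulus, from factors already present in the cell, and their transcripts are short-lived. Fos, Fosb, Jun and Junb encode subunits of the AP-1 transcription factor. Egr1 is a zinc finger factor, Atf3 a stress-induced factor of the ATF/CREB family, and Ier2 a nuclear protein induced by growth factors. Zfp36 (tristetraprolin) speeds the decay of messenger RNAs, Btg2 restrains proliferation and promotes deadenylation, and Dusp1 is a phosphatase that switches off MAP kinases, so these 3 members act in feedback. Immediate early genes are also known to rise when tissue is dissected or dissociated.

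The sequences just upstream of the transcription start are shown for the feedback members and for Fos and Atf3, to set the promoters of members that moved together over the arrays beside those of 2 induced transcription factors. They are the 250 bases before the start in RefSeq, build GRCm38.p6, 5′ to 3′ on the gene's strand. The windows are chr1:134079156-134079405 (minus strand) for Btg2, chr17:26508473-26508722 (minus) for Dusp1, chr7:28379229-28379478 (minus) for Zfp36, chr12:85473640-85473889 (plus) for Fos and chr1:191183334-191183583 (minus) for Atf3. None of these 5 windows overlaps another annotated gene. Capitals mark the cyclic AMP response element (CRE, TGACGTCA) or its core (TGACG, on either strand), the TATA box (TATAAA, on the gene's strand) and the CArG box, the site of serum response factor.
Btg2: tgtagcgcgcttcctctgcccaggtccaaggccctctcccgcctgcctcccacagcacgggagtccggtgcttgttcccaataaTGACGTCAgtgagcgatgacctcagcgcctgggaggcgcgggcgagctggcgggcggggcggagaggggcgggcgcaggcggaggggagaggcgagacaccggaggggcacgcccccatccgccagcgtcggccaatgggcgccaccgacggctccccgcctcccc
Dusp1: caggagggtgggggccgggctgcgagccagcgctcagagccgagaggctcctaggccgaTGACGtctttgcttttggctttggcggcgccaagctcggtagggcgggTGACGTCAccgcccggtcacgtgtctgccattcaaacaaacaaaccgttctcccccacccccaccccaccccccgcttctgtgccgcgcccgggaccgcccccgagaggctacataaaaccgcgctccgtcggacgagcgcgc
Zfp36: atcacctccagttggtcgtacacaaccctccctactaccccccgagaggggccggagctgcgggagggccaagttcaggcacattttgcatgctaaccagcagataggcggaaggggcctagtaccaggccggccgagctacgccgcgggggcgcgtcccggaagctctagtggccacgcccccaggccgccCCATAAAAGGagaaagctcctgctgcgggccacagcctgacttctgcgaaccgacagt
Fos: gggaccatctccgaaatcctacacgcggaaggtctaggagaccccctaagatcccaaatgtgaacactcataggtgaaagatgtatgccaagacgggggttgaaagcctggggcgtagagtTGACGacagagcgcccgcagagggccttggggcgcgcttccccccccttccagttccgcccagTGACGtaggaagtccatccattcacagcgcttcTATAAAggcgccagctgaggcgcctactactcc
Atf3: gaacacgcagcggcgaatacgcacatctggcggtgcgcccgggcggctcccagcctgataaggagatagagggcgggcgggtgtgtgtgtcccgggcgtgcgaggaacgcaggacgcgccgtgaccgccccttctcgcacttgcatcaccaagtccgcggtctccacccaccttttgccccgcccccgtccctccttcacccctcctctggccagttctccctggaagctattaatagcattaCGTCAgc

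Windows of this length were searched for 7 of the 10 genes. The full CRE was found in Btg2, from 166 to 159 bases before the start, and in Dusp1, from 143 to 136 bases before it, against 1.55% of 32851 promoter windows of all genes. Its core, which lies inside the full site, was found in 5 of the 7 members (Btg2, Atf3, Fosb, Fos and Dusp1) and in 17.8% of all windows. The TATA box was found in Fos, from 33 to 28 bases before the start (7.59% of all windows). The CArG box was found in Zfp36, from 58 to 49 bases before the start (1.47%). GC boxes (GGGCGG, either strand, not in capitals) were found in 7 of 7 members (32.7% of all windows). The AP-1 site (TGANTCA, either strand) was found in 0 of 7 (6.75%). A match is a description of these letters only, a missing match says no more than that they are not in this window, and the arrays hold no measure of factor binding.

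The log2 signals of Fos and Fosb were low and nearly flat on all arrays except E18.5 wild-type array 3. Fos was at 4.43, 4.50, 5.25 and 4.34 on E18.5 wild-type arrays 1 to 4 and at 4.61, 4.57, 4.47, 4.24 and 4.42 on the E18.5 knockout arrays. At P0 it was at 4.41, 4.27, 4.59, 4.39 and 4.28 in wild type, and in knockout ran from 4.39 over a median of 4.45 to 4.68. Array 3 of the E18.5 wild type was the highest of the 20, ahead of P0 knockout array 6, and the groups overlapped. Fosb was at 4.30, 4.37, 4.87 and 4.30 in E18.5 wild type, and every other array lay between 4.09 and 4.38. Fos was above the array median on 1 of 20 arrays and Fosb on 0 of 20. Neither passed the signal filter, so the tests covered 7 of the 9 measured members.

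Jun, the AP-1 subunit that can act without Fos, was higher at E18.5 than at P0 in wild type. It was at 7.88, 7.58, 8.65 and 7.24 on E18.5 wild-type arrays 1 to 4, at 7.14, 7.19, 7.54, 7.43 and 7.55 on the E18.5 knockout arrays and at 6.77, 7.29, 6.998, 6.71 and 6.87 on the P0 wild-type arrays. On the P0 knockout arrays it ran from 6.78 over a median of 7.07 to 7.26. E18.5 wild-type array 3 was the highest of all, and E18.5 and P0 wild types overlapped through E18.5 array 4 and P0 array 2. Egr1 was at 5.15, 5.16, 6.15 and 5.21 in E18.5 wild type, between 4.75 and 5.39 in E18.5 knockout, between 5.08 and 5.36 in P0 wild type and between 4.77 and 5.59 in P0 knockout. The groups overlapped, and array 3 was the highest of all arrays.

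Atf3 varied most at E18.5 and was tightly grouped at P0. It was at 6.04, 6.22, 7.70 and 5.95 in E18.5 wild type, and at 6.61, 5.83, 6.23, 5.98 and 6.45 in E18.5 knockout. At P0 it lay at 5.92, 5.82, 5.88, 5.78 and 5.71 in wild type, and in knockout from 5.70 over a median of 5.88 to 6.05. The lowest E18.5 wild-type array lay just above the highest P0 wild-type array (5.95 against 5.92). The share of all genes without such overlap was not computed. Ier2 was at 5.90, 6.22, 6.82 and 6.26 in E18.5 wild type, at 6.17, 6.27, 5.99, 5.95 and 6.16 in E18.5 knockout and at 5.74, 5.67, 5.74, 5.92 and 6.07 in P0 wild type. In P0 knockout it ran from 5.87 over 6.02 to 6.16.

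The feedback members had the widest spread among the 9. Zfp36 was at 7.88, 8.76, 8.79 and 7.11 in E18.5 wild type, at 7.03, 8.12, 7.37, 7.46 and 7.95 in E18.5 knockout and at 6.66, 7.31, 8.04, 6.64 and 8.15 in P0 wild type. In P0 knockout it ran from 7.95 over a median of 8.18 to 9.30, the last on array 6. The P0 wild types split: arrays 3 and 5 lay within the range of the knockouts and arrays 1, 2 and 4 did not.

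Btg2 was at 8.12, 8.49, 8.61 and 7.57 in E18.5 wild type, between 7.42 and 8.16 in E18.5 knockout and at 6.73, 6.74, 7.61, 6.40 and 7.18 in P0 wild type. In P0 knockout it was at 7.70, 10.62, 7.87, 7.24, 7.16 and 8.03 on arrays 1 to 6. Array 2 of the P0 knockout was the highest of the series, ahead of E18.5 wild-type array 3 at 8.61. Dusp1 was at 6.59, 6.53, 7.64 and 6.56 in E18.5 wild type, at 6.14, 6.36, 6.32, 6.53 and 6.78 in E18.5 knockout and at 6.62, 6.51, 7.40, 6.25 and 6.92 in P0 wild type. In P0 knockout it was at 7.19, 8.20, 6.82, 6.55, 7.19 and 7.69, highest on the same array 2.

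**Figure D1:**
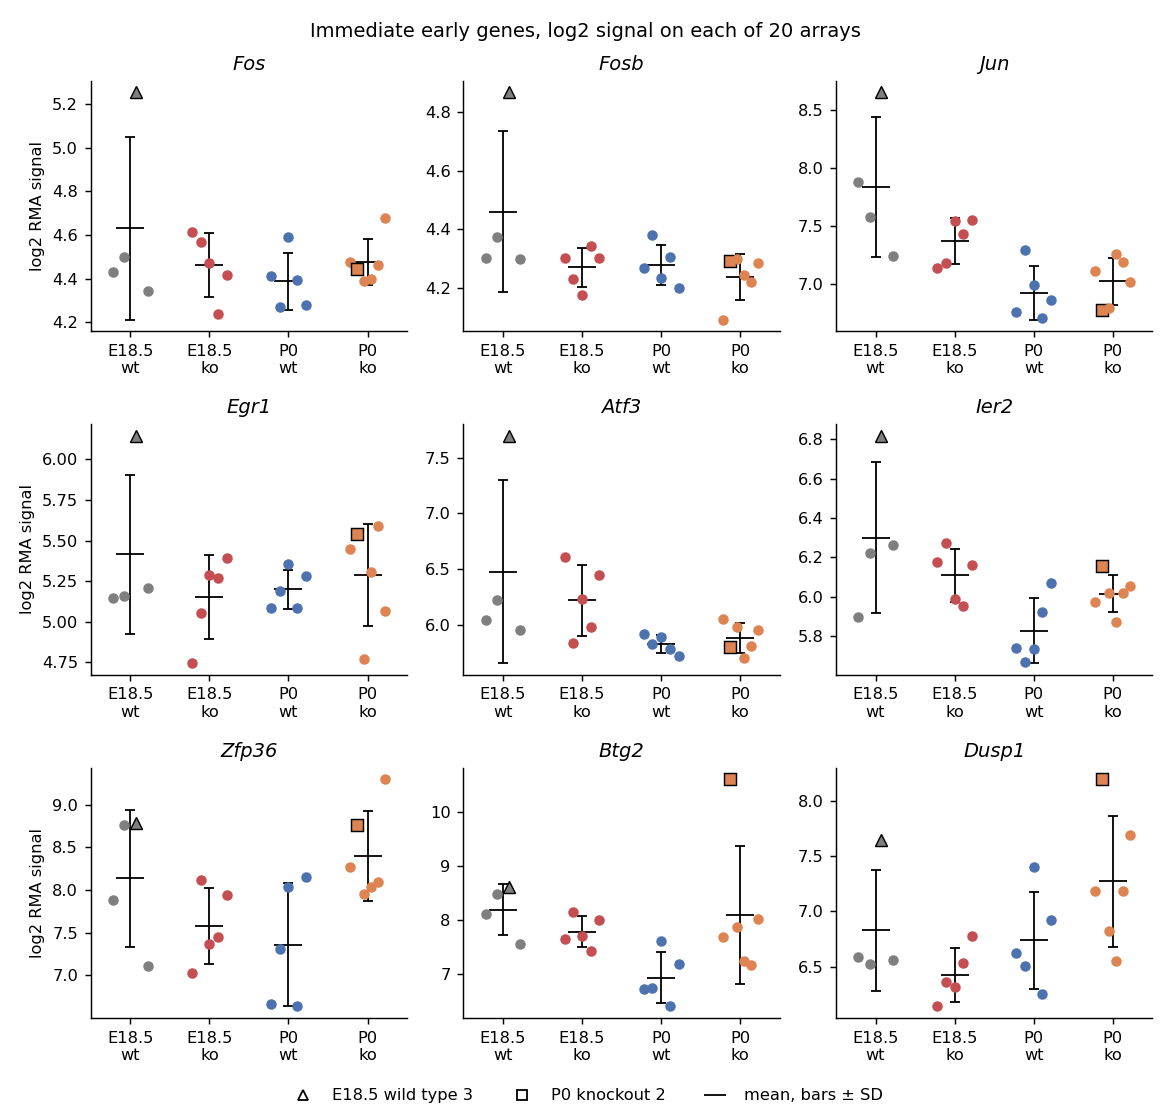
Log2 signal of the 9 measured members (vertical axis, one panel a gene) in the 4 groups (horizontal axis). Each point is an array, horizontal bars are group means and error bars SD, with 4, 5, 5 and 6 arrays from left to right. The triangle is E18.5 wild-type array 3, the highest E18.5 array in all 9 panels, and the square is P0 knockout array 2, which reached 10.62 for Btg2.

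E18.5 wild-type array 3 carried the highest E18.5 value of 9 of the 9 members. Among all tested genes, 7.45% had their highest E18.5 value on this array. It was the highest of all 20 arrays for 6 members (Fos, Fosb, Jun, Egr1, Atf3 and Ier2), against 2.72% of tested genes. The members' mean deviation from their group means was 0.69 on this array. P0 knockout array 2 had the second largest mean deviation, 0.43, and carried the highest P0 value of 3 members (Ier2, Btg2 and Dusp1), against 12.4% of tested genes. Array 6 of the P0 knockout carried the highest P0 value of 2 members, Fos and Zfp36. On the other 18 arrays the mean deviation ran from -0.42, on E18.5 wild-type array 4, to 0.26, on P0 wild-type array 3.

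**Figure D2:**
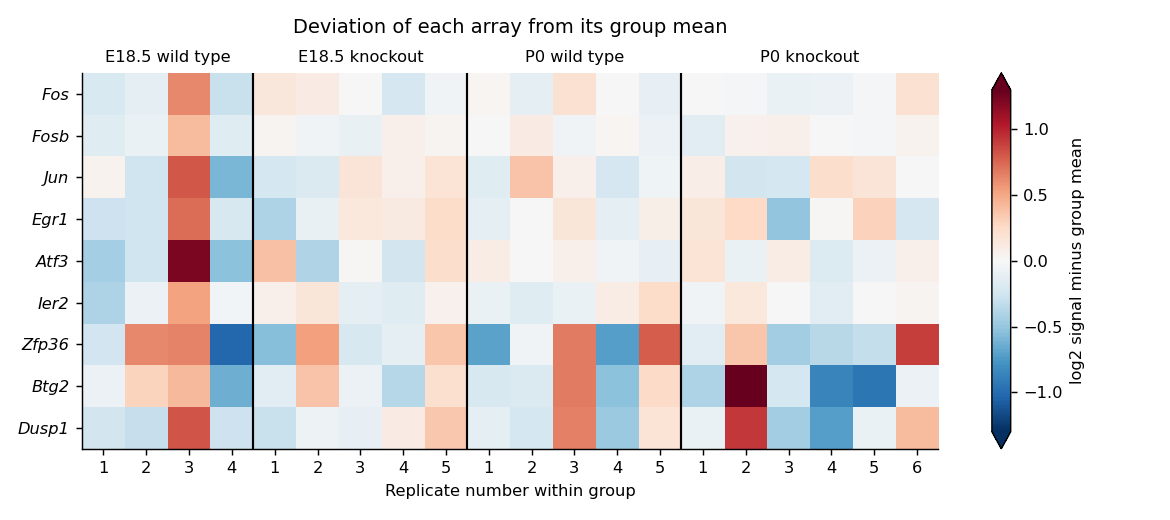
Log2 signal of each member minus its group mean (colour) for the 9 members (rows) on the 20 arrays (columns, by group and replicate number). Colours are limited to 1.3 in either direction, which P0 knockout array 2 exceeded for Btg2. All 9 members are above their group mean on E18.5 wild-type array 3, and Zfp36, Btg2 and Dusp1 vary together at P0.

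The within-group SD of Btg2 was 0.79, larger than in 98.6% of tested genes. It was 0.62 for Zfp36 (larger than in 97.4%), 0.48 for Dusp1 (94.4%) and 0.40 for Atf3 (90.2%). The median over tested genes was 0.20. Without E18.5 wild-type array 3 the SD of Atf3 was 0.19, larger than in 44.4% of tested genes, while that of Zfp36 was 0.61 and that of Dusp1 0.43. Without P0 knockout array 2 as well, the SD of Btg2 was 0.40. Array 3 therefore carried most of the spread of Atf3, and P0 knockout array 2 a large share of that of Btg2.

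Deviations from the group mean were then compared between members over the arrays. These correlations describe arrays that share their RNA preparation and normalization, and no p-value is given, since the members were chosen together. Over all 20 arrays the 36 pairs of members had a median Pearson r of 0.47 and a median Spearman rho of 0.25. Of the pairs, 35 were above 0 and 16 above 0.5. Among all pairs of tested genes 51.4% were above 0 and 3.39% above 0.5, and their median r was 0.01. Of the 36 pairs, 15 include Fos or Fosb, whose signals were mostly below the array median and which are not among the tested genes. The 21 pairs among the 7 tested members had a median r of 0.44, with 20 above 0 and 8 above 0.5. The highest of these was Btg2 with Dusp1 (r = 0.73, rho = 0.64), and the pair below 0 was Jun with Btg2 (r = -0.06). Within the 9 E18.5 arrays the median r was 0.71, and within the 11 P0 arrays it was 0.05.

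Much of the covariation of all members together came with 1 array. Without E18.5 wild-type array 3 the median r over the 36 pairs was 0.04, with 21 pairs above 0 and 3 above 0.5. Among all pairs of tested genes 51.4% were then above 0 and 3.8% above 0.5. Over the 21 pairs of tested members the median r was 0.21. The 2 arrays farthest from the median of the members' mean deviation were E18.5 wild-type array 3 and P0 knockout array 2, and without them these medians were 0.09 and 0.16. The pairs among Zfp36, Btg2 and Dusp1 kept their r: it was 0.55 to 0.73 over all arrays, 0.53 to 0.77 without E18.5 wild-type array 3 and 0.61 to 0.82 without both. Zfp36 with Btg2 had an r of 0.82 without both arrays (rho = 0.80). Within the 10 P0 arrays other than knockout array 2 the 3 pairs had r of 0.77 to 0.82, and within the 8 E18.5 arrays other than wild-type array 3 of 0.11 to 0.91. Over these 10 and 8 arrays, 9.79% and 14.5% of all pairs of tested genes had an r above 0.5. This grouping of the feedback members was seen in these values and has no separate test.

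The 15 pairs among the other 6 members had a median r of 0.62 over all arrays and of -0.06 without E18.5 wild-type array 3. Without both arrays Jun and Egr1 had an r of 0.57 and Jun and Ier2 of -0.67. Fos and Fosb were then below the median of every array left, and their pairs are not read further.

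**Figure D3:**
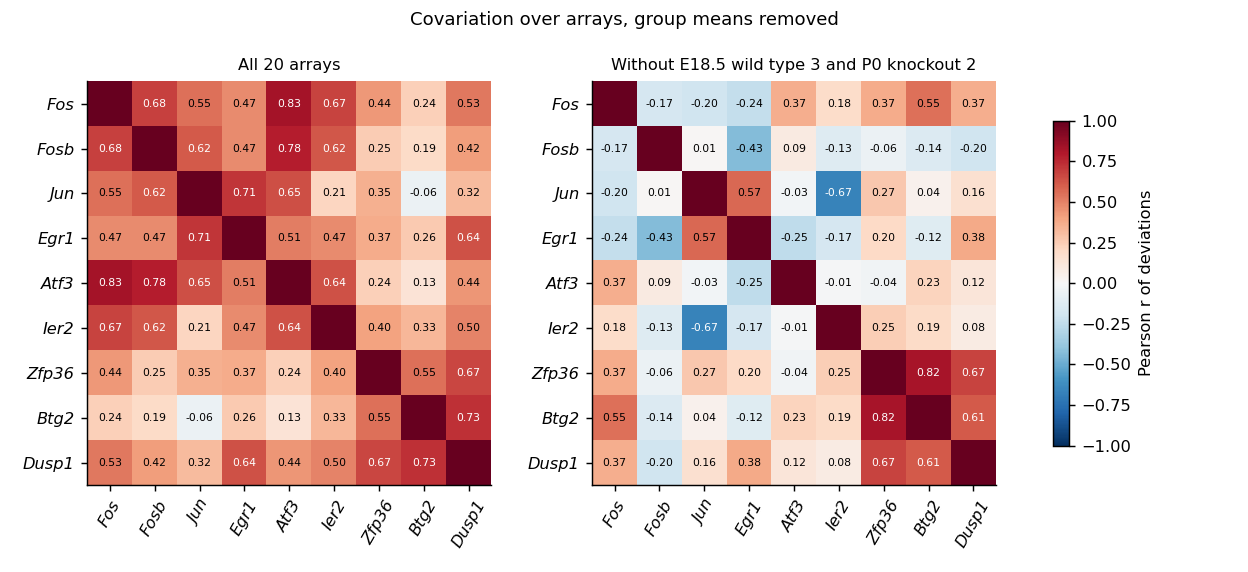
Pearson r between the deviations from the group mean for each pair of the 9 members (rows and columns), over all 20 arrays (left) and over the 18 arrays without E18.5 wild-type array 3 and P0 knockout array 2 (right). On the left 35 of 36 pairs are above 0, and on the right 21 of 36 are, with Zfp36, Btg2 and Dusp1 at 0.61 to 0.82. Among all pairs of tested genes 51.4% (left) and 51.6% (right) are above 0.

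The arrays that stood apart also differed in marker genes of other cell types. On E18.5 wild-type array 3 the mean of 11 of 12 listed mesenchymal markers was 11.87, the highest of the E18.5 arrays (11.03 to 11.54 in knockout, lowest wild type 11.37), and 8 of the 11 had their highest E18.5 value there. The mean of 12 acinar markers was 16.74, the lowest at E18.5. Its liver marker mean of 11.66 ranked 3 of 9 and its intestinal marker mean of 5.32 ranked 8. On P0 knockout array 2 the mesenchymal mean of 11.42 was the lowest at P0, the acinar mean of 16.95 the highest, and the liver mean of 12.36 the second highest of 11. The mesenchymal and acinar means thus lay at opposite ends on these arrays, while the liver mean was high on both. With the mesenchymal mean as a covariate, an alternative added after seeing the data, the median r over the 36 pairs was 0.52. With the liver and intestinal means as covariates it was 0.42. In such bulk RNA, fewer cells of a type and less RNA per cell cannot be told apart, and the part of cell makeup or tissue handling in these values was not tested.

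Knockout and wild type were compared at each age in a linear model over all 20 arrays (limma), with p-values adjusted over 17993 tested genes by the Benjamini-Hochberg method and calls at an adjusted p under 0.05. At E18.5 all 9 members had a lower mean in knockout, with a median difference of -0.26 on the log2 scale against 0.02 over all tested genes, of which 43.0% were below 0. None of the 7 tested members was called, and 0.0111% of all tested genes were. Among the 7, 1 had an unadjusted p under 0.05, as did 980 tested genes (5.45%). This was Jun, with a difference of -0.47 ± 0.21 (SE; adjusted p = 0.91; lower than the wild-type mean on 5 of 5 knockout arrays). Zfp36 differed by -0.55 ± 0.40 (adjusted p = 0.97), Btg2 by -0.41 ± 0.50 and Dusp1 by -0.40 ± 0.30. Without wild-type array 3, 7 of the 9 differences were below 0 and their median was -0.055. That of Jun was then -0.20, that of Zfp36 -0.34, that of Btg2 -0.27 and that of Dusp1 -0.13. Marker genes of other cell types moved in the same contrast. Knockout was lower for 10 of 11 mesenchymal markers (median -0.22) and 7 of 9 neural markers (median -0.60). It was higher for 3 of 13 liver markers (median -0.66) and for 8 of 8 tested intestinal markers (median 1.04). None was called. In this order 3, 0, 0 and 1 of them had an unadjusted p under 0.05, and their part in the members' values was not tested.

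At P0 the feedback members had the larger means in knockout, but none of the 7 tested members passed the test. Of the 9 differences 8 were above 0, with a median of 0.10 against 0.005 over all tested genes, of which 52.1% were above 0. The share called over all tested genes was again 0.0111%, and 2 of the 7 had an unadjusted p under 0.05, as did 1576 tested genes (8.76%). Zfp36 differed by 1.04 ± 0.36 (adjusted p = 0.48), with 6 of 6 knockout arrays above the wild-type mean. Btg2 differed by 1.17 ± 0.46 (adjusted p = 0.52; 6 of 6) and Dusp1 by 0.53 ± 0.28 (adjusted p = 0.59; 5 of 6). Jun, Egr1, Atf3 and Ier2 differed by 0.06 to 0.19. Without P0 knockout array 2 the difference of Btg2 was 0.67, that of Dusp1 0.35 and that of Zfp36 0.97. In the same contrast the 13 listed liver markers measured were all higher in knockout, by a median of 1.56 with none called (3 at an unadjusted p under 0.05). Neural markers were higher for 8 of 9 (median 0.68, none called, 0 at an unadjusted p under 0.05). The part of liver or neural tissue in the samples was not tested.

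The effect of knockout at P0 was also set against that at E18.5 by an interaction term. All 9 members had a larger (more positive) difference at P0, with a median of 0.38 against -0.01 over all genes. The term was above 0 in 47.0% of all tested genes. No gene was called by limma, a share of 0%, and 4 of the 7 members had an unadjusted p under 0.05, as did 1256 tested genes (6.98%). Among the 4 members Ier2 lay at the limit, with an unadjusted p that rounds to 0.05. The term was 1.59 ± 0.53 for Zfp36 (adjusted p = 0.59), 1.58 ± 0.68 for Btg2 (adjusted p = 0.69) and 0.93 ± 0.41 for Dusp1 (adjusted p = 0.70). Without E18.5 wild-type array 3, 8 of the 9 terms were above 0, with a median of 0.20. Liver markers (12 of 13 above 0, median 2.39) and neural markers (8 of 9, median 1.26) had larger terms than most members. None was called, 2 of each had an unadjusted p under 0.05, and their part was not tested.

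Between the ages, Jun and Ier2 fell from E18.5 to P0 in wild type. These were 2 of the 7 tested members, both lower at P0, against 8.86% of all tested genes called, 4.76% as higher and 4.10% as lower. Jun was lower by 0.91 ± 0.21 (log2 difference -0.91, 1.88-fold; adjusted p = 0.012), below the E18.5 mean on 5 of 5 P0 arrays. Ier2 had a difference of -0.47 ± 0.13 (1.39-fold; adjusted p = 0.036; 5 of 5). Atf3 differed by -0.65 ± 0.26 and did not pass the test (adjusted p = 0.12). Btg2 differed by -1.26 ± 0.50 (adjusted p = 0.13), Zfp36 by -0.78 ± 0.40 and Dusp1 by -0.09 ± 0.30. All 9 members had a lower mean at P0, with a median of -0.47 against 0.006 over all tested genes, of which 48.2% were lower. Without E18.5 wild-type array 3 the difference of Jun was -0.64 and still passed (adjusted p = 0.030). Without the same array that of Ier2 was -0.30 and did not pass (adjusted p = 0.11), and that of Atf3 was -0.25. Of the 9 members 7 were then lower, with a median of -0.25. Fitted on the wild-type arrays alone, Jun did not pass (adjusted p = 0.0795). The call of Ier2 was also lost without E18.5 wild-type array 2 or 4 (adjusted p = 0.0697 and 0.0513) or P0 wild-type array 1, 2 or 3 (0.0609, 0.0669 and 0.0779). Btg2 was called without P0 knockout array 2 (adjusted p = 0.00589), with the difference as before. In the same contrast 11 of 11 mesenchymal markers were higher at P0 (median 0.34, 2 called), while 12 of 13 liver markers (median -1.31), 7 of 8 intestinal markers (-0.72, 1 called) and 8 of 9 neural markers (-0.73, 1 called) were lower. With the mesenchymal mean as a covariate the difference of Jun was -1.13 (adjusted p = 0.021) and that of Ier2 -0.54 (adjusted p = 0.078). With the liver and intestinal means they were -1.10 (adjusted p = 0.013) and -0.43 (adjusted p = 0.13).

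In knockout, Dusp1 rose from E18.5 to P0, by 0.85 ± 0.28 (1.80-fold; adjusted p = 0.034), and lay above the E18.5 mean on 6 of 6 P0 arrays. It was 1 called of the 7, against 23.0% of all tested genes called, 11.3% as higher and 11.7% as lower. Zfp36 differed by 0.82 ± 0.36 (adjusted p = 0.11; 6 of 6), Btg2 by 0.31 ± 0.46, Jun by -0.34 ± 0.19 (adjusted p = 0.20) and Atf3 by -0.34 ± 0.23. Of the 9 members 5 were higher and 4 lower at P0, with a median of 0.01, beside 49.3% and 50.7% of all tested genes. The call of Dusp1 was lost without P0 knockout array 2 (adjusted p = 0.066) or 6 (0.071), and without any of E18.5 knockout arrays 1 to 4 (0.052 to 0.079). With liver and intestinal marker means as covariates the difference was 0.52 (adjusted p = 0.39), and with the mesenchymal mean 1.16 (adjusted p = 0.054). In the same contrast 11 of 11 mesenchymal markers (median 0.34, 5 called) and 11 of 13 liver markers (median 0.67, none called) were higher at P0. Of 8 intestinal markers 0 were higher (median -1.62, 3 called lower), and the part of these cell types was not tested. Without P0 knockout array 2 the difference of Btg2 was -0.19. Without E18.5 wild-type array 3, Atf3 was called as well, with the same difference and an adjusted p of 0.0432. The contrasts share groups of arrays, so their differences are given side by side and are not independent.

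**Figure D4:**
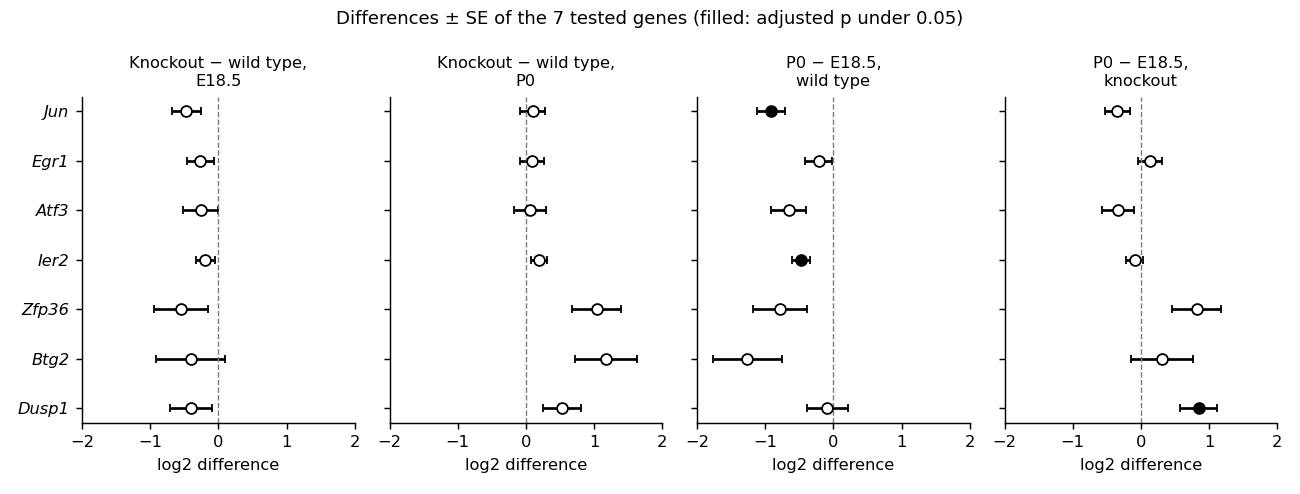
Log2 differences with SE (horizontal axis) of the 7 tested members (rows) in 4 contrasts, left to right knockout minus wild type at E18.5 and at P0, then P0 minus E18.5 in wild type and in knockout. Filled points have an adjusted p under 0.05: Jun (-0.91) and Ier2 (-0.47) with age in wild type and Dusp1 (0.85) with age in knockout.

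Other immediate early genes were read from a list of 48, of which 38 were tested. On E18.5 wild-type array 3, 12 of the 38 had their highest E18.5 value, against the 7.45% of all tested genes, and the mean of the list was the highest of 9. Ccn1, a matricellular protein induced by serum, was at 9.80 there and at 7.91 to 9.10 on the other E18.5 arrays. Ptgs2, the inducible cyclooxygenase, was at 5.34 against at most 5.05, and Egr2 at 5.54 against at most 5.33. Others were low there: Phlda1, at 8.53, was below all other E18.5 arrays (8.83 to 10.38), and Myc was at 9.29 against 9.22 to 10.46. On P0 knockout array 2, 9 of the 38 had their highest P0 value, against 12.4% of all tested genes. Gadd45b, a stress sensor, was at 10.09 there, within the 6.16 to 10.34 of the other P0 arrays.

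None of the 38 was called between knockout and wild type by limma at either age, and 5 at E18.5 and 7 at P0 had an unadjusted p under 0.05. Over all tested genes the shares were 0.0111% called at either age, and 5.45% and 8.76% at an unadjusted p under 0.05. The smallest unadjusted p at E18.5 were those of Ier3 (-0.44 ± 0.13), Cebpd (-0.47 ± 0.18) and Nfkbiz (-0.20 ± 0.08). At P0 they were those of Mcl1 (0.30 ± 0.09), Cebpb (0.29 ± 0.12) and Gadd45b (1.34 ± 0.55, 6 of 6 knockout arrays above the wild-type mean). With age in wild type 1 rose, Nfkbia (0.67 ± 0.20, adjusted p = 0.049), the inhibitor of NF-κB, and 3 fell, against 4.76% and 4.10% of all tested genes. Those were Phlda1 (-1.32 ± 0.27), Trib1 (-0.43 ± 0.12) and Dusp6 (-0.38 ± 0.10), a phosphatase specific for ERK.

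With age in knockout 8 of the 38 rose and 4 fell, against 11.3% and 11.7% of all tested genes. The largest rises were those of Errfi1, an inhibitor of the EGF receptor (2.82 ± 0.60, adjusted p = 0.0026), Per1, a clock repressor (1.43 ± 0.30, 0.0027), Nfkbia (0.94 ± 0.18, 0.0015) and Cebpd (0.89 ± 0.16, 0.00087). Those that fell were Plk2, a polo-like kinase (-2.05 ± 0.32), Phlda1 (-1.61 ± 0.24), Ier5l (-0.35 ± 0.10) and Maff (-0.32 ± 0.09). Members and list genes thus moved both ways with age. The median over the 38 was 0.16 with age in knockout and -0.07 in wild type.

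Related genes were tested in 4 lists, and between genotypes limma called 0 in each. Of 7 AP-1 and ATF relatives, 0 had an unadjusted p under 0.05 at E18.5 and 1 at P0. These counts were 1 and 1 of 11 paralogues of the feedback members, 2 and 1 of 19 upstream kinases and factors, and 0 and 2 of 10 heat shock genes. With age in knockout, 3 of the 7 AP-1 and ATF relatives rose, against 11.3% of all tested genes: Batf (0.53 ± 0.11), Maf (0.38 ± 0.13) and Atf2 (0.24 ± 0.08). Of the 11 paralogues 1 rose in knockout, Btg1 (1.16 ± 0.26, adjusted p = 0.0040), and 0 fell, against 11.3% and 11.7% of all tested genes. In wild type 1 of the 11 rose, Btg3 (0.69 ± 0.19), and 1 fell, Tob1, an antiproliferative relative of Btg2 (-0.67 ± 0.20). The shares of all tested genes there were 4.76% and 4.10%. Zfp36l1, a paralogue of Zfp36 that also promotes messenger RNA decay, differed by -0.48 ± 0.18 between knockout and wild type at E18.5 (adjusted p = 0.80).

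Upstream, Creb1, the factor that binds the CRE, fell with age in wild type (-0.64 ± 0.19, adjusted p = 0.039) and in knockout (-0.55 ± 0.17, adjusted p = 0.024). Of the 19 tested, 2 rose and 2 fell in wild type (4.76% and 4.10% of all tested genes), and 7 rose and 3 fell in knockout (11.3% and 11.7%). The receptor gene Egfr rose in knockout (0.71 ± 0.13) and the ERK kinases Map2k1 and Map2k2 fell (-0.44 ± 0.09 and -0.29 ± 0.10). Srf, the factor of the CArG box, differed by -0.35 ± 0.17 between knockout and wild type at E18.5 (adjusted p = 0.92). Of the 10 heat shock genes, 2 fell with age in wild type, the HSP90 co-chaperone Chordc1 (-1.60 ± 0.32) and Hsph1 (-1.41 ± 0.35), and in knockout 1 rose and 4 fell, beside the same shares of all genes. E18.5 wild-type array 3 had the highest E18.5 value of 1 heat shock gene out of 10 and ranked 4 of 9 in the mean of the 11 measured. P0 knockout array 2 had the highest P0 value of 2 of the 10 and the highest mean of the 11 P0 arrays, 9.86.

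The tested genes whose deviations followed the mean of the members most closely over the 20 arrays were taken from 12011 genes. The 10 highest r were those of Terb1 (0.76), Ccn1 (0.75), Tmem116, Mettl16, Ly6g5c, Apold1 (0.73), Zbtb8a, Phf19, Mon2 and Krit1 (0.70). The lowest were those of Homer3 (-0.81), Ndufv2 (-0.77), Dctn6, Hddc2 and Lsm1 (-0.71). Ccn1 is itself on the list of other immediate early genes. Terb1 was at 4.79 to 5.25 over the arrays, near the array medians of 4.81 to 4.94, so its r describes a signal close to background. Homer3 also had a narrow range, 5.44 to 5.83. Without E18.5 wild-type array 3 and P0 knockout array 2 the r of Terb1 was 0.63, of Ccn1 0.69, of Apold1 0.64 and of Homer3 -0.86. Apold1, an endothelial early response gene, was at 7.35 on E18.5 wild-type array 3 and at 5.20 to 5.97 on the other E18.5 arrays.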

How the data were processed

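RNA of 20 mouse pancreas samples was amplified, labelled with biotin and hybridised to Affymetrix transcript arrays. The authors deposited log2 values made with RMA in Affymetrix Expression Console 1.4.1.46, per the submitters' processing notes. RMA corrects background and makes the arrays' distributions alike. The array's genome build was not given in the sources used here, and coordinates belong to RefSeq promoters of GRCm38.p6. A gene was read from the probe set with 1 symbol and the highest mean. Tests covered the 17993 of 30063 genes whose signal exceeded the median of its array on 4 or more arrays. The 4 group means were fitted together with limma 3.58.1 in R 4.3.3 (two-sided, 17.9 total degrees of freedom) and tested on simulated data. Levels of different probe sets are not compared. Same-numbered wild-type and knockout samples had correlated deviations of -0.03 to 0.25, not all over 0.1, so numbers were not treated as pairs.

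The members and gene lists were chosen with earlier results of these data known. Named genes were the members, Elapor1, and in each list up to 4 called genes in each direction or else the 3 with the smallest unadjusted p. Also named were the 10 genes with the highest and the 5 with the lowest r to the members' mean (predicted genes, small RNAs and duplicated values skipped), and list genes with array values, chosen after their values were seen. Alternatives were other filters, normalizations, variance settings, array weights, covariates, blocks and arrays left out.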

Additional observations from a re-analysis of the deposited data

Results flagged for a closer look

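In 6 of 36 sets of values (9 genes in 4 groups) the highest array lay apart from its group by Dixon's test, which flags about 1 in 20 single sets by chance. For E18.5 wild-type array 3 this held for Fosb at 4.868 (next array 4.374), Egr1 at 6.146 (5.206), Atf3 at 7.699 (6.221) and Dusp1 at 7.644 (6.587). For P0 knockout it held for Btg2 at 10.618 on array 2 (next array 8.030) and for Fos at 4.676 on array 6 (4.476). The Fos and Fosb values lay below the array median. The 36 sets come from the same 20 arrays and are not independent, so their count cannot be measured against the rate for single sets.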

How the results depend on the processing

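No called difference changed sign under the alternatives run, while 17 differences of single genes that were not called did, mostly without E18.5 wild-type array 3 or with marker means. No member was called between genotypes under any of them. Among the 7 tested members, 2 were called with age in wild type. This count was 1 without a filter, in the fit of the groups compared alone (Btg2, while Jun and Ier2 were not called), with the number shared across ages as a replicate block, with the liver and intestinal or the mesenchymal marker mean as covariates, and on dropping 5 arrays whose intestinal or muscle marker mean exceeded 7, and it was 1 to 3 on leaving out each array. With array weights the count in wild type was 3, with Btg2 called too (limma, adjusted p = 0.0498). With age in knockout 1 was called. This count was 0 with the replicate block across ages, with either set of marker means and on dropping those 5 arrays, and 0 to 2 on leaving out each array. The block and the mesenchymal covariate were added after seeing the data. The median r of 0.47 was 0.25 as Spearman rho, 0.71 over E18.5 and 0.054 over P0 arrays, 0.085 without E18.5 wild-type array 3 and P0 knockout array 2, and 0.040 to 0.54 on leaving out each array. A replicate block within age called 0 members between genotypes, and it could not be fitted for the age contrasts. The interaction could not be fitted on 2 groups alone. The precision is set by 4 to 6 arrays a group, and signals near the array median, as for Fos, Fosb and Egr1, compress differences.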

Other observations

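Zfp36, Btg2 and Dusp1, grouped after their values were seen, were followed most closely over the 20 arrays by Llgl2 (r = 0.87), Smg1 (0.87) and Ddit4 (0.84). These are the highest r among 12011 genes. In the same order r was 0.93, 0.91 and 0.92 within P0, and 0.66, 0.72 and 0.56 within E18.5. Ddit4, an inhibitor of mTORC1 that is induced by stress and fasting, was at 9.50 on P0 knockout array 2 and at 6.19 to 8.70 on the other P0 arrays. Without that array and E18.5 wild-type array 3 its r was 0.81, over arrays that share their preparation. Homer3 had the lowest r with these 3 genes, -0.87, over the narrow range of 5.44 to 5.83.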
